A study of Mus musculus with 29 samples.

Results

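Cholesterol synthesis was followed in the distal colon through 8 genes, of which 7 could be measured. The listed genes were Hmgcs1, Idi1, Fdft1, Sqle, Lss, Cyp51, Insig1 and Srebf2. A gene was measured where the array annotation tied a probe set to that gene alone, and the probe set with the highest mean over all 29 arrays stood for the gene. The only probe set of Idi1 also named a second gene, so Idi1 was given no value. Each of the other 7 genes had 1 such probe set, among 22180 genes measured in this way on the array. The 7 genes code for enzymes and regulators of synthesis, and none of them is itself an uptake receptor.

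Total RNA from the distal colon of female mice of 18 to 24 weeks, labelled as strain C57BL/6, was hybridised to Affymetrix Mouse Gene 2.0 ST arrays, which report every transcript as a log2 intensity. The groups were untreated wild type (WT, n = 8), untreated Cygb-/- (n = 8), AOM/DSS-treated WT (n = 8) and AOM/DSS-treated Cygb-/- (n = 5), with 1 array per animal as the labels count biological replicates. Azoxymethane (AOM), a colon carcinogen, was injected intraperitoneally at 7.4 mg/kg, and dextran sulfate sodium (DSS), which injures the colonic epithelium and brings on colitis, was given in 3% solution for 7 days per cycle. The labels give 1 DSS cycle and sampling in week 5, whereas the study's methods give 2 cycles and week 7 for the array samples. The methods' array cohort held 8 WT and 5 Cygb-/- treated mice, the sizes of the treated groups here, and its other cohorts differed in size. The group sizes thus match the cohort of 2 cycles and week 7, although the labels state otherwise. Cygb-/- mice carried a constitutive, whole-body deletion of exon 2 of cytoglobin, a heme protein, made in stem cells of another strain and backcrossed for 7 generations to C57BL/6J. After the first crosses the WT and the Cygb-/- animals were bred as separate lines, so genotype and line cannot be told apart.

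The study asked how loss of cytoglobin alters the inflamed colon, and the arrays allow the treatment to be compared within each genotype, the genotypes within each treatment, and the treatment differences with each other. Cygb checked the labels, with at least 8.41 in every WT array and at most 6.48 in every Cygb-/- array. Array medians of log2 intensity lay between 4.76 and 4.88. Xist was at 3.82 in replicate 3 of AOM/DSS-treated Cygb-/-, against 10.64 or more in the other 28 arrays, whereas the labels describe female mice. Leaving that array out moved no member across the threshold in any comparison. Markers of absorptive and goblet cells were among the brighter signals of all arrays, as the tissue label implies, while replicates 5 and 6 of untreated WT also carried squamous epithelium markers, at mean log2 levels of 6.07 and 5.40 over 11 genes against 4.02 to 4.36 in the other untreated arrays.

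Cholesterol is built from acetyl-CoA in a long chain of reactions. Hmgcs1 makes HMG-CoA, Idi1 interconverts the isoprenoid building blocks, Fdft1 joins farnesyl units into squalene, Sqle oxidises squalene, Lss closes the rings to lanosterol and Cyp51 begins the trimming of lanosterol. The genes are switched on together by the transcription factor SREBP2, the product of Srebf2, which is released from the endoplasmic reticulum when membrane sterol is low. INSIG1 holds the SREBP escort protein SCAP back when sterol is plentiful, and Insig1 is itself an SREBP target. In the gut the pathway is active in epithelial cells, and it supplies membranes of dividing cells.

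SREBP2 binds sterol regulatory elements beside boxes for the factors NF-Y and Sp1, so the promoters of the members were read for these letters. RefSeq promoter windows (build GRCm38.p6) matched 6 of the 8 genes: Hmgcs1, Idi1, Lss, Cyp51, Insig1 and Srebf2. In the 250 bases before the transcription start, on either strand, the classical sterol element TCACNCCAC was found in Hmgcs1 alone, 1 of 6 windows, against 1.05% of 32851 mouse promoter windows of the same length. CCAAT, the NF-Y box, stood in 6 of 6 windows, against 33.8% of all windows, and GGGCGG, the Sp1 box, in 6 of 6, against 32.7%. Only exact matches were counted, so sterol elements with other letters were not searched, and their absence from the other windows is not shown. No matches overlapped each other in these 6 windows. Hmgcs1 is shown because it holds all 3 motifs, Cyp51 and Insig1 as further members that rose in treated WT colon, and Srebf2 as the gene of the factor itself, whose group means lay closest together. Sequences run 5′ to 3′ on the gene's strand, and capitals mark matches to the 3 motifs or their reverse complements.
Hmgcs1, chr13:119690101-119690350, plus strand: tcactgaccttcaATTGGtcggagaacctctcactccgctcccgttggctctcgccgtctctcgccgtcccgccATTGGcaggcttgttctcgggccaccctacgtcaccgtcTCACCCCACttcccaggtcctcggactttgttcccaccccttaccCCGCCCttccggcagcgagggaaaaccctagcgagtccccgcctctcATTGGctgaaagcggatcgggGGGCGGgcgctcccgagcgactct
Cyp51, chr5:4104698-4104947, minus strand: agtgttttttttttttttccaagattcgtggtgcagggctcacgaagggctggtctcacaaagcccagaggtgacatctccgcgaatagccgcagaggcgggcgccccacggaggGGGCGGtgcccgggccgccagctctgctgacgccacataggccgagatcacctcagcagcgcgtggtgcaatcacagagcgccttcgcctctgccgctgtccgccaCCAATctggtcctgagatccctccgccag
Insig1, chr5:28071162-28071411, plus strand: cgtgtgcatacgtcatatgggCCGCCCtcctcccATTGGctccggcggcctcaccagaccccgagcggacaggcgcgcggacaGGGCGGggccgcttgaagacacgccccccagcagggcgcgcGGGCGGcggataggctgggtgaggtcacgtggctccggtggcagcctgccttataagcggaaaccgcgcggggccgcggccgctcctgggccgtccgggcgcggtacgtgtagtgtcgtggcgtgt
Srebf2, chr15:82147019-82147268, plus strand: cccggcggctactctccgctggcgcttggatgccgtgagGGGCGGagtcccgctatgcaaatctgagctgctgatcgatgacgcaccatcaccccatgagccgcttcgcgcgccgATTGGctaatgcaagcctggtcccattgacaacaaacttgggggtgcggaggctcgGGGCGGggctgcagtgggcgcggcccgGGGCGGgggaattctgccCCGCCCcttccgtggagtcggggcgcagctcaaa

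**Figure D1:**
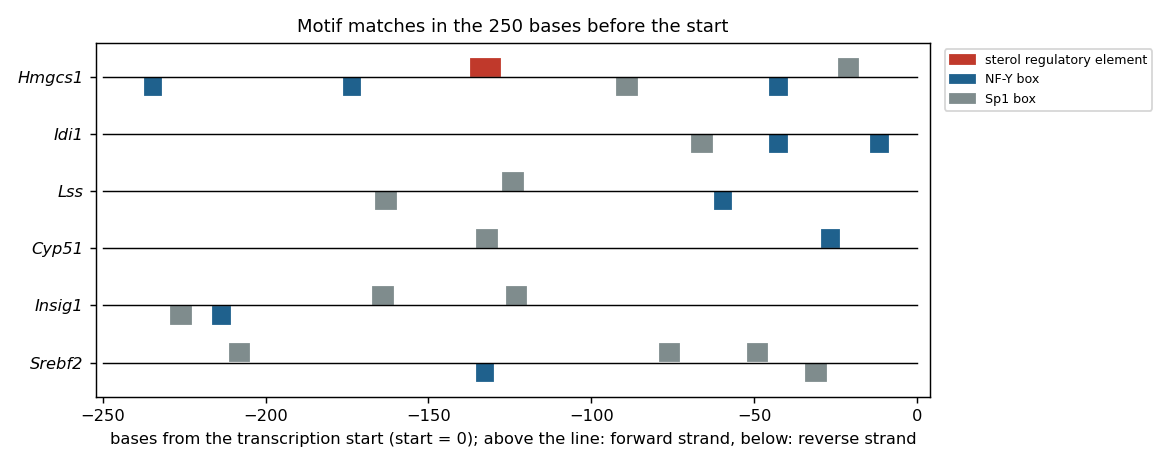
Matches to the sterol regulatory element, the NF-Y box and the Sp1 box in the 250 bases before the start of 6 members, plotted by distance from the start in bases, with forward matches above and reverse matches below each line. Only Hmgcs1 has an exact match to the sterol element TCACNCCAC, from -137 to -129, and variants of it were not searched. Each window holds at least 1 NF-Y and 1 Sp1 box.

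All 7 genes were well expressed. Their mean log2 intensity over the 29 arrays ran from 8.25 for Lss, at percentile 88.2 of all probe sets, to 10.58 for Hmgcs1, at percentile 98.2. Intensities of different probe sets depend on the probes, so the order of the genes is not an order of transcript abundance.

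In WT colon the AOM/DSS treatment was accompanied by higher signal of most of the pathway. Of the 7 genes 5 rose, Fdft1, Hmgcs1, Insig1, Cyp51 and Sqle, and none fell, where 26.7% of the 41345 probe sets passed the same test (limma, Benjamini-Hochberg adjusted p under 0.05 over all probe sets), 12.5% upwards and 14.3% downwards. The median log2 difference of the 7 genes was 0.41, against -0.04 over all probe sets. Lss and Srebf2 did not pass. None of the 7 reached 1.5-fold here or in the other comparisons between groups, so the methods' t-test, which was run only past that fold, called 0 of the 7 throughout, the 5 named here included.

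Fdft1, the squalene synthase that commits farnesyl units to sterols, had the strongest support. Untreated WT arrays ran from 9.80 through a median of 10.04 to 10.35 log2 units, and treated WT arrays from 10.32 through 10.62 to 10.70. Only the lowest treated array, replicate 1, lay within the untreated range, and 7 of 8 treated arrays lay above every untreated array. The log2 difference was 0.57 (SE 0.08, adjusted p = 3.00e-05, limma), or 1.48-fold.

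Hmgcs1, the cytosolic HMG-CoA synthase at the head of the pathway, ran from 10.08 (median 10.34) to 10.63 in untreated WT and from 10.60 (median 10.82) to 11.20 in treated WT. Again 7 of 8 treated arrays exceeded all untreated ones, and replicate 1 was the exception. The difference was 0.54 (SE 0.10, adjusted p = 0.000449, limma), or 1.46-fold. Sqle, which introduces the first oxygen into squalene, ran from 8.27 (median 8.58) to 8.81 untreated and from 8.66 (median 8.95) to 9.19 treated. The groups shared only the range occupied by treated replicate 1, and the difference was 0.38 (SE 0.09, adjusted p = 0.00283, limma).

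Cyp51, the lanosterol demethylase, ran from 8.14 (median 8.44) to 8.60 in untreated WT and from 8.52 (median 8.86) to 9.11 in treated WT, with 7 of 8 treated arrays above all untreated ones. Its difference was 0.41 (SE 0.08, adjusted p = 0.000995, limma). Lss, the cyclase between Sqle and Cyp51, was the enzyme that did not pass. It ran from 7.84 (median 8.09) to 8.39 untreated and from 7.67 (median 8.49) to 8.97 treated, so that 1 treated array, replicate 3, lay below all untreated arrays and 6 lay above them. The difference was 0.38 (SE 0.15, 95% interval 0.07 to 0.69, adjusted p = 0.064, limma). Without replicate 3 it was 0.49 (adjusted p = 0.00362), and it also passed without replicate 6 of untreated WT (0.43, adjusted p = 0.0481).

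Of the regulators, Insig1 rose and Srebf2 did not pass. Insig1 ran from 9.30 (median 9.51) to 9.92 in untreated WT and from 9.77 (median 9.92) to 10.55 in treated WT. All 8 treated arrays were above the untreated median and 4 were above every untreated array, since replicate 6 of untreated WT was as high as the middle of the treated group. The difference was 0.52 (SE 0.12, adjusted p = 0.00313, limma), or 1.44-fold. Srebf2 ran from 9.52 (median 9.65) to 9.79 untreated and from 9.54 (median 9.63) to 9.81 treated. These ranges were nearly the same, and the difference of 0.00 had a 95% interval from -0.12 to 0.12 (adjusted p = 0.989, limma).

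**Figure D2:**
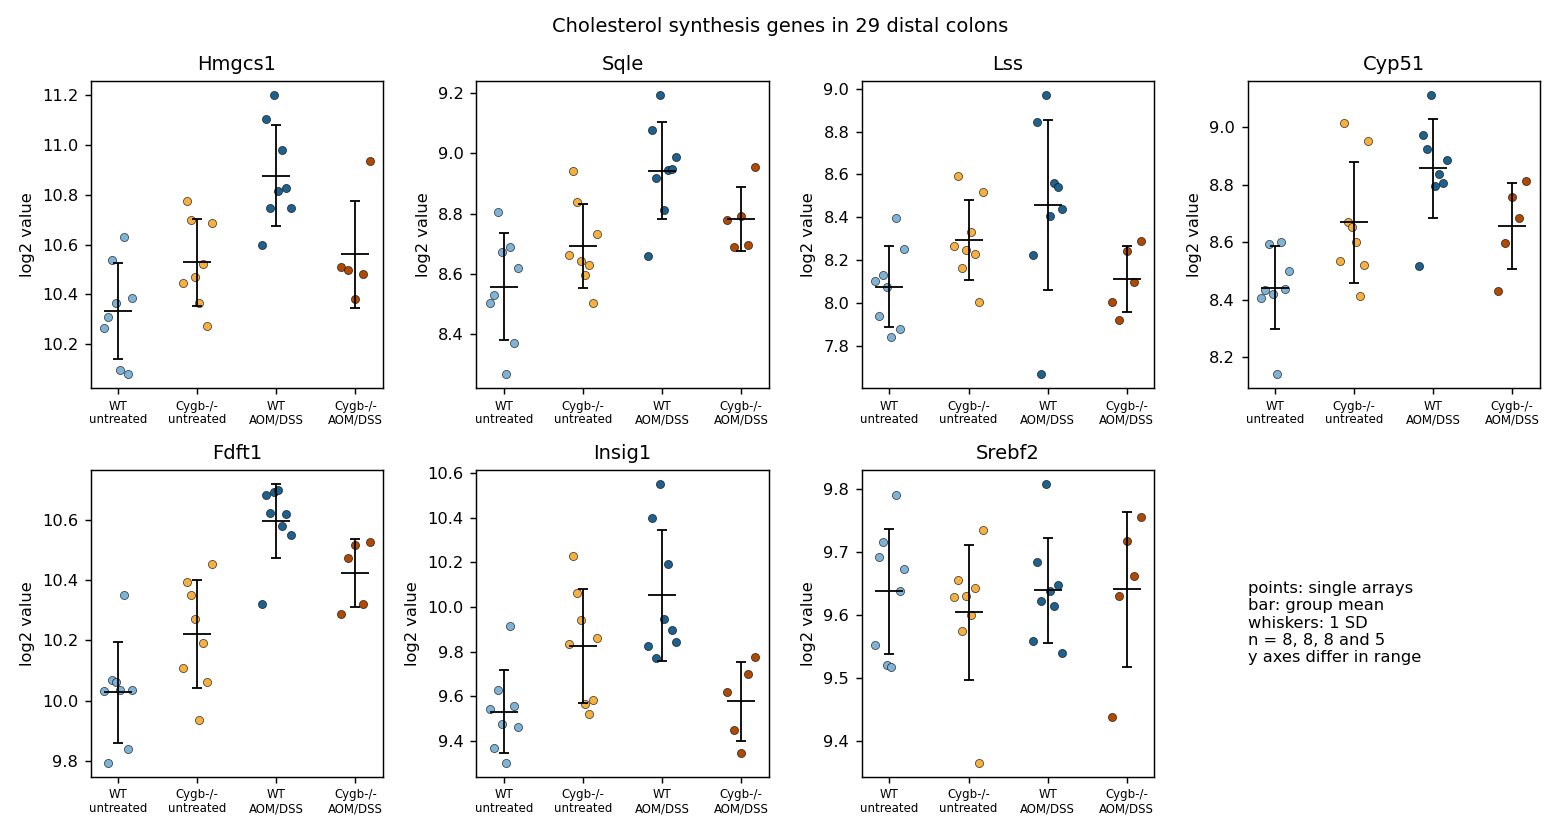
Log2 intensity of the 7 measured genes in 29 distal colons, 1 panel per gene, with points for single arrays, a bar for the group mean and whiskers of 1 SD (n = 8, 8, 8 and 5). The group mean of treated WT is the highest for the 5 enzymes and Insig1, as for Fdft1 at 10.60 against 10.03 in untreated WT, while Srebf2 lies between 9.60 and 9.64 in every group mean. For Lss, replicate 3 of treated WT is the lowest of all 29 arrays, at 7.67.

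In Cygb-/- colon the same treatment was accompanied by no called change of these genes. Of the 7 genes 0 passed (limma), 1 had an unadjusted p under 0.05 (Fdft1), as had 35.8% of all probe sets, and 26.1% of all probe sets passed in this comparison, 12.6% upwards and 13.5% downwards. The median log2 difference of the 7 genes was 0.03, against -0.04 over all probe sets, and the differences ran from -0.25 for Insig1 to 0.20 for Fdft1.

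Fdft1 was 10.29, 10.32, 10.47, 10.52 and 10.53 in the 5 treated Cygb-/- arrays, and ran from 9.94 (median 10.23) to 10.45 in the untreated ones. All 5 lay above the untreated median and 3 above every untreated array, with a difference of 0.20 (SE 0.09, 95% interval 0.01 to 0.40, adjusted p = 0.125, limma). Hmgcs1 was 10.38, 10.48, 10.50, 10.51 and 10.94 treated, and ran from 10.28 (median 10.50) to 10.77 untreated. A single treated array, replicate 5, was above the untreated range and the other 4 lay in its lower and middle part, for a difference of 0.03 (95% interval -0.20 to 0.26, adjusted p = 0.869, limma).

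Sqle was 8.69, 8.69, 8.78, 8.79 and 8.95 in treated Cygb-/- and ran from 8.50 (median 8.65) to 8.94 in untreated Cygb-/-. All 5 treated arrays exceeded the untreated median and 1 of them every untreated array, and the difference was 0.09 (95% interval -0.08 to 0.26, adjusted p = 0.469, limma). Cyp51 was 8.43, 8.60, 8.68, 8.76 and 8.81 treated, inside the untreated range of 8.41 (median 8.63) to 9.01, with a difference of -0.01 (95% interval -0.24 to 0.22). Lss was 7.92, 8.00, 8.10, 8.24 and 8.29 treated against 8.00 (median 8.26) to 8.59 untreated, and 4 of 5 treated arrays lay below the untreated median. Its difference was -0.18 (95% interval -0.40 to 0.03, adjusted p = 0.218, limma).

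Insig1 had its treated Cygb-/- arrays at 9.35, 9.45, 9.62, 9.70 and 9.78, against an untreated range of 9.52 (median 9.85) to 10.23. All 5 treated arrays were below the untreated median and 2 were below every untreated array, the opposite side from treated WT. The difference was -0.25 (SE 0.12, 95% interval -0.51 to 0.02, adjusted p = 0.177, limma). Srebf2 was 9.44, 9.63, 9.66, 9.72 and 9.76 treated and ran from 9.36 (median 9.63) to 9.73 untreated, with a difference of 0.04 (95% interval -0.12 to 0.19).

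Whether the treatment difference itself differed between the genotypes was tested as the interaction in a fit over all 4 groups. None of the 7 genes passed (0 of 7, limma), and 0.148% of all probe sets did. At an unadjusted p under 0.05 there were 6 of 7, against 8.08% of all probe sets, all 6 with the smaller or opposite difference in Cygb-/-. The largest was that of Insig1, at -0.77 (SE 0.18, 95% interval -1.13 to -0.41, adjusted p = 0.0827, limma). Its adjusted p ran from 0.0415 to 0.204 over 36 alternatives, of which 6 were under the threshold. Lss followed at -0.56 (95% interval -0.96 to -0.17, adjusted p = 0.355) and Hmgcs1 at -0.51 (95% interval -0.81 to -0.21, adjusted p = 0.22). Cyp51, Fdft1 and Sqle had -0.43, -0.36 and -0.30, with adjusted p from 0.271 to 0.464. Srebf2, at 0.04 (95% interval -0.14 to 0.21), stood apart from the enzymes in size. Insig1 was also on a list that the study drew from these same arrays, so its place here is not independent of them.

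**Figure D3:**
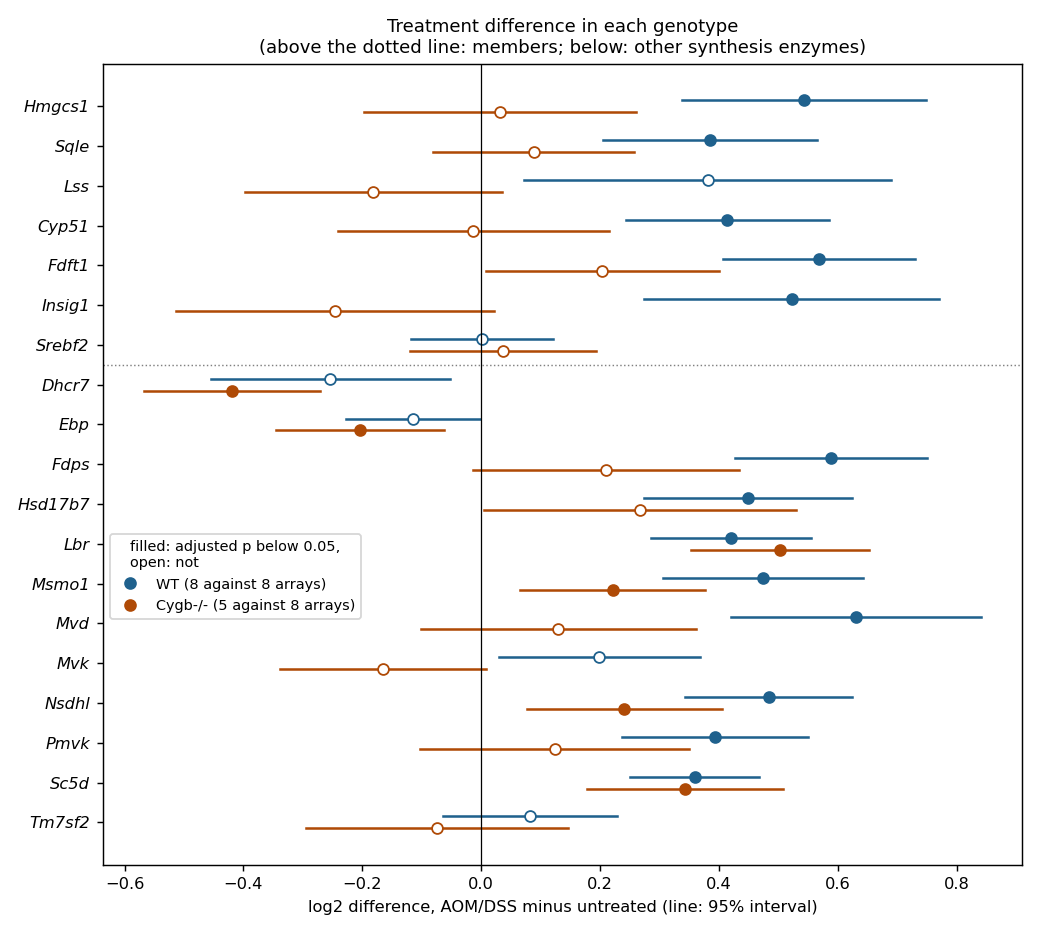
Log2 difference between AOM/DSS-treated and untreated colon for the 7 measured genes (above the dotted line) and 12 other enzymes of cholesterol synthesis (below it), in WT (blue) and Cygb-/- (orange), with lines for 95% intervals and filled points for an adjusted p under 0.05. In WT 5 members and 8 other enzymes are filled and lie to the right of 0, and in Cygb-/- 0 members and 6 other enzymes are filled, 4 to the right and 2 to the left.

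The genotype comparisons share their arrays with the treatment comparisons above, and are given as their own values. In untreated colon 6 of 7 genes had the higher mean in Cygb-/-, 5 with an unadjusted p under 0.05 (6.98% of all probe sets), and 0 passed (limma), where 0.0218% of all probe sets did. Insig1 had the largest difference, 0.29 (SE 0.11, 95% interval 0.07 to 0.52, adjusted p = 0.591, limma), with all 8 Cygb-/- arrays above the WT median and 3 above every WT array. Cyp51 was at 0.23 (95% interval 0.04 to 0.41), with 4 of 8 Cygb-/- arrays above every WT array, and Lss, Hmgcs1 and Fdft1 were at 0.22, 0.20 and 0.19. Sqle was at 0.14 (95% interval -0.03 to 0.30), and Srebf2 at -0.03 (95% interval -0.15 to 0.09).

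In treated colon the order was turned. Of the 7 genes 6 had the lower mean in Cygb-/-, 3 with an unadjusted p under 0.05 (9.69% of all probe sets), and 0 passed (limma), against 0.167% of all probe sets. Insig1 was lower by the most, at -0.48 (SE 0.14, 95% interval -0.77 to -0.18, adjusted p = 0.273, limma), with 4 of 5 Cygb-/- arrays below all 8 WT arrays. Hmgcs1 was at -0.32 (SE 0.12, 95% interval -0.56 to -0.07, adjusted p = 0.39, limma), again with 4 of 5 arrays below all WT arrays. The remaining array, replicate 5, lay above the WT median, and without it the Hmgcs1 difference was -0.41 (adjusted p = 0.182). Lss was at -0.35 (95% interval -0.72 to 0.03), Cyp51 at -0.20 (95% interval -0.41 to 0.01), Fdft1 at -0.17 (95% interval -0.34 to -0.0043) and Sqle at -0.16 (95% interval -0.35 to 0.03). Srebf2 was at 0.00 (95% interval -0.15 to 0.15).

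Set in order, untreated WT had the lowest and treated WT the highest mean of all 6 genes other than Srebf2. For Fdft1 the means stepped from 10.03 (untreated WT) to 10.22 (untreated Cygb-/-), 10.42 (treated Cygb-/-) and 10.60 (treated WT), with SDs of 0.11 to 0.18, and each step was larger than the SD of the groups beside it. For Sqle, Lss and Insig1 no step between neighbours exceeded the larger SD of the pair, and for Cyp51 only the step up from untreated WT did. For Hmgcs1 the middle groups, untreated and treated Cygb-/-, lay 0.03 apart and the outer steps exceeded the SD. For Srebf2 all group means lay between 9.60 and 9.64.

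The genes moved together from animal to animal. As deviations from the group mean over 29 arrays, the 15 pairs among the 5 enzymes and Insig1 had Pearson's r from 0.46 to 0.88 (median 0.68) and Spearman's rho from 0.54 to 0.83. All 21 pairs, with Srebf2 included, had an adjusted p of at most 0.0097 for r in a permutation test within groups, and all 21 passed for rho as well. The closest pair was Hmgcs1 with Sqle, at r = 0.88 and rho = 0.83, with an adjusted p of 7e-05 from a raw p of 1e-05, the smallest that these permutations could give. Srebf2 also varied with the enzymes, with r from 0.49 to 0.68 over its 6 pairs, although its group means did not move with theirs. For each pair r was also taken without the 2 arrays farthest from the median of 1 of its genes, the other gene not being screened. It then ran from 0.43 to 0.86 for the 15 pairs and from 0.39 to 0.71 for those with Srebf2. Within untreated WT, untreated Cygb-/- and treated WT alone, the median r of the 15 pairs was 0.74, 0.75 and 0.75. All genes of an array share its RNA, its cell makeup and its normalisation, so these correlations describe the arrays as much as the genes.

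Single animals stood out for the set as a whole. Replicate 5 was the highest of the treated Cygb-/- arrays for 7 of 7 genes, replicate 4 the highest of treated WT for 6 of 7, and replicate 6 the highest of untreated WT for 6 of 7. Replicate 1 was the lowest of treated WT for 4 of 7 genes, and replicate 5 the lowest of untreated WT for 5 of 7. The untreated WT arrays with squamous markers thus lay at opposite ends, replicate 6 at the top and replicate 5 at the bottom. With both left out, a choice made after seeing the data, the same 5 genes rose in treated WT, and 0 passed between the genotypes without treatment and in the interaction.

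**Figure D4:**
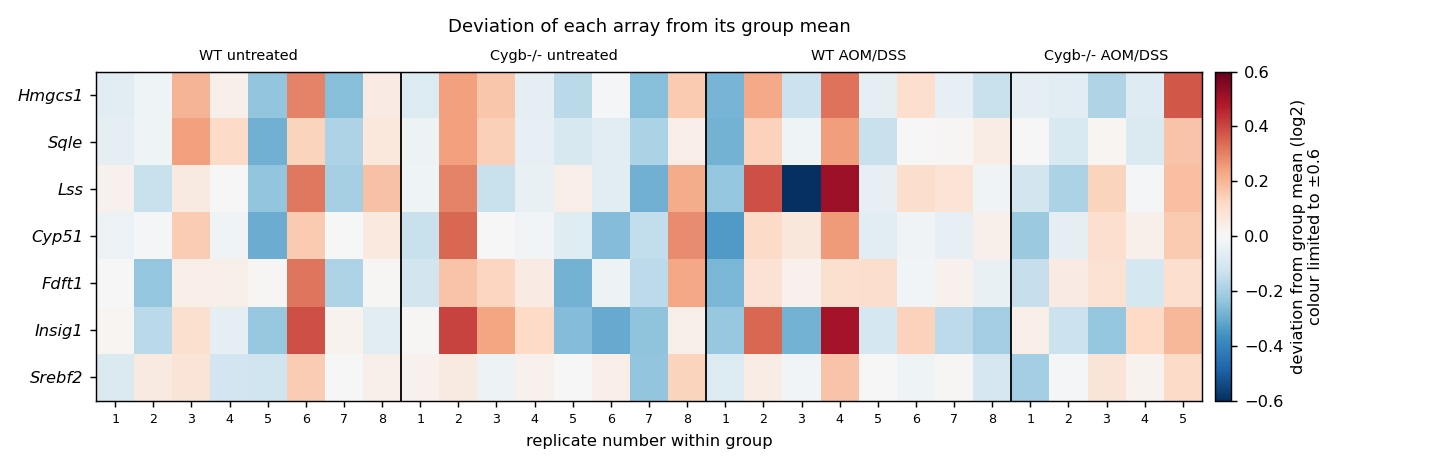
Deviation of each of the 29 arrays from its group mean, in log2 units, for the 7 measured genes (rows), with arrays in columns by group and replicate number and colour limited to ±0.6. Columns are mostly of 1 colour from top to bottom, as in replicate 4 of treated WT and replicate 5 of treated Cygb-/-.

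The genes with the pattern most like the members were sought among 22173 other genes by the correlation of their deviations from the group means with the members' average deviation over the 29 arrays. Of the 10 highest, 4 were further enzymes of the pathway, Msmo1 (r = 0.86), Mvk (0.78), Nsdhl (0.76) and Mvd (0.70). Mvk and Mvd act between HMG-CoA and the isoprenoid units, and Msmo1 and Nsdhl remove methyl groups from the sterol ring after Cyp51. The other 6 were Aacs, the cytosolic acetoacetyl-CoA synthetase (0.77), Mmab (0.74), Rhbdd1 (0.73), Lactb2 (0.71), Rdh11 (0.71) and Pex11g (0.69). These are descriptions of 29 arrays, picked as the highest of many. The other measured synthesis enzymes outside the members ran from Dhcr7 (r = 0.64, rank 20) down to Ebp (r = 0.19, rank 4494).

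The remaining enzymes of cholesterol synthesis, 12 measured of 15 listed, gave a partly different picture. The median difference with treatment in WT was 0.41, the same as that of the members. There 8 of 12 rose and 0 fell (12.5% and 14.3% of all probe sets). By smallest p these were led by Fdps, which makes farnesyl diphosphate (0.59, SE 0.08, adjusted p = 1.98e-05, limma), Nsdhl (0.48), Sc5d, a late desaturase (0.36), and Lbr, which also acts as a sterol reductase (0.42). In Cygb-/- 4 of 12 rose and 2 fell (12.6% and 13.5% of all probe sets). Lbr (0.50), Sc5d (0.34) and Nsdhl (0.24) rose in Cygb-/- too, whereas Dhcr7, the last reductase of the pathway, fell by 0.42 (SE 0.07, adjusted p = 0.000363, limma). In WT Dhcr7 was at -0.25 and did not pass (adjusted p = 0.0577). No enzyme of this list passed between genotypes or in the interaction (0 of 12, limma). Of all probe sets 0.0218% passed between untreated genotypes, 0.167% between treated ones and 0.148% in the interaction. The interaction was negative for 11 of 12, and 6 had an unadjusted p under 0.05 (8.08% of all probe sets). Untreated Cygb-/- had the higher mean for 11 of 12, and 5 had such a p (6.98%). Treated Cygb-/- had the lower mean for 8 of 12, and 2 had such a p (9.69%).

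Srebf1 and the genes for proteins that control SREBP cleavage were taken as 1 list, 8 measured of 9 listed. With treatment in WT 2 rose, 2 fell and 4 did not pass, and the counts were the same in Cygb-/-. Among all probe sets 26.7% passed in WT and 26.1% in Cygb-/-. Srebf1, the gene of the SREBP that governs fatty acid synthesis, rose by 0.49 in WT and 0.35 in Cygb-/-, and Mbtps2, a protease that releases SREBPs, rose by 0.39 and 0.47. Insig2, the second INSIG gene, went the other way from Insig1 in WT, and it fell by 0.24 in WT and by 0.29 in Cygb-/- (adjusted p = 0.00482 and 0.0187, limma). Erlin1, which takes part in breaking down sterol-sensing proteins, fell by 0.37 and by 0.54. Scap, the SREBP escort, did not pass, at -0.0037 in WT and 0.03 in Cygb-/-.

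Other features of the tissue moved with the treatment and the genotype, and their part in the results above was not tested. In bulk tissue fewer cells of a type and less RNA per cell cannot be told apart. Among all probe sets 26.7% passed with treatment in WT and 26.1% in Cygb-/-. Absorptive colonocyte markers fell in WT (7 of 9) and Cygb-/- (8 of 9), and their mean log2 level ran from 11.25 to 11.47 over untreated arrays of the 2 genotypes, from 9.85 to 10.94 in treated WT and from 9.18 to 10.32 in treated Cygb-/-. Proliferation genes rose in WT (5 of 7) and Cygb-/- (7 of 7), with levels of 7.31 to 8.38 in treated WT and 8.20 to 8.51 in treated Cygb-/-. Neutrophil markers rose in each genotype (9 of 9), to levels of 5.92 to 7.75 in treated WT and 6.59 to 8.84 in treated Cygb-/-. Macrophage (7 of 7) and fibroblast markers (6 of 6) also rose in each genotype, and smooth muscle markers (8 of 8) fell in each. The squamous level ran from 4.34 to 7.47 in treated WT and from 4.62 to 6.39 in treated Cygb-/-. In treated WT, replicates 4 and 2 had the highest averages over the 7 genes and squamous levels of 4.34 and 7.47. Replicate 1 had the lowest average of treated WT, 9.39, and a squamous level of 7.46.

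Clock genes of the PER phase, which follow the time of day and feeding, separated the treated genotypes. Of the 8 measured, 5 were lower in treated Cygb-/- than in treated WT, 6 passed the interaction and 0 passed between untreated genotypes (limma). Of all probe sets 0.167%, 0.148% and 0.0218% passed in these comparisons. Dbp, Per3, Ciart, Nr1d2, Tef and Hlf were on a list that the study drew from these same arrays. It held genes higher in treated WT than in treated Cygb-/- colon, so these counts are not independent of it. All 8 had the higher mean in untreated Cygb-/-, 3 with an unadjusted p under 0.05 (6.98% of all probe sets). Their mean log2 level was 6.61 to 7.06 in treated Cygb-/-, below the 7.19 to 8.01 of treated WT and the 7.30 to 8.24 of untreated Cygb-/-, and overlapping the lower end of the 6.99 to 7.82 of untreated WT. The hour of sampling is not given in the sources used here, and its part in the members' values was not tested.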

How the data were processed

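The authors hybridised labelled total RNA to Affymetrix Mouse Gene 2.0 ST arrays and deposited RMA values, which are background-corrected, quantile-normalised and summarised log2 intensities per probe set. The tool version and genome build are not given in the sources used here. All 41345 probe sets of 29 arrays were used: 23521 were annotated to 1 gene, 1820 to several and 16004 to none. The number of arrays limits the precision.

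Groups came from the labels. Groups were compared in pairs with limma 3.58.1 in R 4.3.3 (lmFit, eBayes, two-sided). The p-values were adjusted by Benjamini and Hochberg's method across the 41345 probe sets and called under 0.05. The interaction was fitted over the 4 groups. The methods' t-test after a 1.5-fold filter was kept as an alternative, as were a fit over 4 groups, median centring, repeated quantile normalisation, a filter on dim probe sets, trended and robust variances, a replicate block, and leaving out each array. The fit was tested on simulated data. Correlations were tested with 100000 permutations within groups and adjusted over 21 pairs. No 2 arrays held identical values.

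All members were named in every comparison. Of each pathway list, up to 4 genes with the smallest p were named, and the 10 genes most like the members. The members and lists were chosen with earlier results of these data known.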

Additional observations from a re-analysis of the deposited data

Results flagged for a closer look

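In 4 of the 28 combinations of gene and group tested, the extreme array stood apart from the rest of its group by Dixon's criterion, which chance meets in about 5% of groups. Hmgcs1 in treated Cygb-/- was at 10.94 in replicate 5, with the next array at 10.51. Cyp51 in untreated WT was at 8.14 in replicate 5, with the next at 8.41. Fdft1 in treated WT was at 10.32 in replicate 1, with the next at 10.55. Srebf2 in untreated Cygb-/- was at 9.36 in replicate 7, with the next at 9.57.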

How the results depend on the processing

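The 5 genes called in treated WT (Fdft1, Hmgcs1, Insig1, Cyp51 and Sqle) kept their direction and call in all 24 limma alternatives for that comparison. The methods' t-test after the 1.5-fold filter called 0 of 7 there, because no member reached 1.5-fold. Leaving out each array gave 5 to 6 calls in treated WT, with Lss as the added gene, 0 to 0 in treated Cygb-/- and in each genotype comparison, and 0 to 1 in the interaction. Lss in treated WT also passed in the fit over 4 groups (adjusted p = 0.0236), among probe sets above the median mean (0.0424) and with probe sets averaged by gene (0.0434). In the interaction 1 gene, Insig1, passed when only probe sets above the median mean were tested (adjusted p = 0.0415), and 1, again Insig1, when probe sets were averaged by gene (0.049), where each has fewer tests to adjust for, and it passed without untreated WT replicate 6 (0.0467), treated WT replicate 3 (0.0496) or 8 (0.0497), or treated Cygb-/- replicate 5 (0.0467). Signs changed only for differences close to 0. Srebf2 in treated against untreated WT was -0.0092 after median centring, and -0.0228 to 0.0233 with each array left out. Srebf2 between treated genotypes was -0.0216 with the replicate block and -0.027 to 0.0525 with each array left out, and between untreated genotypes -0.0523 to 0.000544. In Cygb-/-, with each array left out, the treatment difference ran from -0.0518 to 0.0431 for Cyp51 and from -0.0619 to 0.0765 for Hmgcs1. The deviations of same-numbered arrays correlated at r from -0.16 to 0.22, over 0.1 in 3 of 5 pairs of treated arrays and in 0 pairs of the other comparisons, so the numbers were not taken as pairing the samples, although some treated pairs deviated together. The replicate block left the members called at 5 in treated WT and 0 elsewhere, and moved the count of all probe sets called from 11053 to 9268 (WT), 10805 to 7015 (Cygb-/-), 9 to 5 (untreated genotypes), 69 to 11 (treated genotypes) and 61 to 54 (interaction).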

Other observations

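Of 13 listed genes for the export of cholesterol, oxysterols and esterification, 10 were measured. Soat1 and Soat2, the esterification genes of the list, had no value. Of the 10, 5 rose and 0 fell with treatment in WT, and the counts were the same in Cygb-/-. Among all probe sets 26.7% passed in WT and 26.1% in Cygb-/-. Abca1, which loads cholesterol onto lipoproteins, rose by 1.20 in WT and 1.31 in Cygb-/- on the log2 scale, Abcg1, a second exporter, by 1.07 and 1.21, Apoe, a lipoprotein component, by 1.03 and 1.06, and Cyp7b1, an oxysterol hydroxylase, by 1.27 and 1.22 (adjusted p at most 2.5e-05, limma). None of the 10 passed between genotypes or in the interaction (0 of 10, limma). Macrophage markers rose beside them in 7 of 7 genes of each genotype, with a median of 1.32 in WT and 1.37 in Cygb-/- and mean levels of 7.60 to 8.05 in untreated WT, 8.92 to 9.37 in treated WT, 7.49 to 8.18 in untreated Cygb-/- and 8.96 to 9.46 in treated Cygb-/-, and their part in these values was not tested.

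Of 10 measured genes for sterol uptake and transfer inside cells, 4 rose and 2 fell in treated WT, and 3 rose and 2 fell in treated Cygb-/-. The shares of all probe sets that passed were 26.7% in WT and 26.1% in Cygb-/-. Gramd1a, a sterol transfer protein of the endoplasmic reticulum, rose by 0.73 and 0.85, and Npc2, which carries cholesterol out of lysosomes, by 0.23 and 0.21. Mylip, a ligase that marks lipoprotein receptors for breakdown, rose by 0.53 in WT (adjusted p = 0.000381) and was at 0.03 in Cygb-/- (adjusted p = 0.85), with an interaction of -0.50 (adjusted p = 0.152, limma). Like Insig1, Mylip was on a list that the study drew from these same arrays, so its values here are not independent of that list. Npc1l1, a sterol importer of the gut surface, fell by 0.43 in WT (adjusted p = 0.00075) and was at -0.29 in Cygb-/- (adjusted p = 0.0722). Gramd1b fell by 0.67 in Cygb-/- (adjusted p = 8.03e-06) and by 0.21 in WT (adjusted p = 0.0393), with an interaction of -0.45 (adjusted p = 0.0635, limma).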
